A study of Mus musculus with 36 samples.

Results

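The glycolysis enzymes described here are 10 genes that were selected by their symbol: the glucose transporter gene Slc2a1 and the enzyme genes Hk1, Hk2, Pfkl, Pfkp, Aldoa, Pgk1, Eno1, Ldha and Ldhb. They took up 11 of the 21442 rows of the count table, because the symbol Aldoa stands for 2 rows. The series holds 36 mouse mRNA libraries, 3 in each of 12 groups (6 stages by 2 genotypes), and was made to follow how loss of Zfp266, a KRAB zinc finger gene, changes reprogramming of fibroblasts to pluripotent cells. The genotypes were wild type (WT) and Zfp266 knockout (KO).

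Mouse embryonic fibroblasts (MEFs) were cultured from chimeric mid-gestation embryos and carried 3 alleles: Cas9 driven by EF1α at Rosa26, GFP and puromycin resistance expressed from Nanog, and an inducible cassette that answers to doxycycline, with Oct4, Sox2, Klf4, Myc and mOrange in the Sp3 locus. Controls of these stages carried the same alleles and received a non-targeting guide. MEF libraries came from unsorted cells collected 96 h after transduction with a lentivirus carrying a non-targeting or a Zfp266 guide. D3, D5 and D7 libraries came from cells kept for 3, 5 or 7 days in 300 ng/ml doxycycline and 10 µg/ml vitamin C, mixed with unmodified WT MEFs during culture and sorted for mOrange, so that KO at these stages means a population of edited cells. The iPS libraries came from single-cell Nanog-GFP+ clones grown without doxycycline in puromycin, 3 WT clones and 3 genotyped KO clones. The ESC libraries came from 3 WT control samples and 3 KO samples. The KO ESCs were genotyped clones made from the Cas9 ESC line that carries the same 3 alleles. The paper does not state how many clones gave the KO libraries or which line gave the controls. Medium, sorting and clonal growth changed together with the stage, so these and the stage cannot be told apart, and in ESCs the clone and the genotype cannot be told apart.

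Glycolysis splits glucose into pyruvate in the cytosol and yields ATP and building blocks without oxygen. Cells take glucose up through transporters, hexokinase traps it as glucose 6-phosphate, phosphofructokinase commits it to the pathway, and aldolase, phosphoglycerate kinase and enolase act in the later steps, while lactate dehydrogenase converts pyruvate and lactate. Several steps have isozymes from different genes with different tissue patterns. Pluripotent cells are known for a high glycolytic rate, and a shift from mitochondrial respiration towards glycolysis is a known part of reprogramming. These data are RNA levels and contain no measurement of enzyme protein, activity or flux.

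To show the regulatory sequence beside the transporter gene and 1 or more genes of the first, committing, ATP-forming and last steps, the bases upstream of 6 RefSeq transcription starts in GRCm38.p6 are given 5′ to 3′ on the strand of the gene, without annotated exons. Capitals mark the E-box CACGTG, a motif bound by Myc family proteins, and the core of the hypoxia-inducible factor (HIF) element, ACGTG or GCGTG, on either strand. The E-box contains ACGTG, so each E-box also counts as a core. The Slc2a1 stretch stops at the annotated first exon, which cuts the core that begins 36 bases before the RefSeq start, and that core is left in lower case. The stretches are chr4:119108495-119108710 (+) for Slc2a1, chr6:82774455-82774704 (-) for Hk2, chr13:6648778-6649021 (-) for Pfkp, chrX:106186850-106187099 (+) for Pgk1, chr7:46845554-46845803 (+) for Ldha and chr6:142507958-142508207 (-) for Ldhb.
Slc2a1: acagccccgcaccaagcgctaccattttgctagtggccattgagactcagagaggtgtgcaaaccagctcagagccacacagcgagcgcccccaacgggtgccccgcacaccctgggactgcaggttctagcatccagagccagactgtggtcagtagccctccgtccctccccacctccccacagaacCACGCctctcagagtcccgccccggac
Hk2: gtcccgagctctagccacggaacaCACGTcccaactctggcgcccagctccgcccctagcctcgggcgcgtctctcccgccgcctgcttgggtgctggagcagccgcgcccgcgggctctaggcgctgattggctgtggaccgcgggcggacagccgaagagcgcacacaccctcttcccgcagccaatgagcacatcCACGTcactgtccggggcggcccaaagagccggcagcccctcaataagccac
Pfkp: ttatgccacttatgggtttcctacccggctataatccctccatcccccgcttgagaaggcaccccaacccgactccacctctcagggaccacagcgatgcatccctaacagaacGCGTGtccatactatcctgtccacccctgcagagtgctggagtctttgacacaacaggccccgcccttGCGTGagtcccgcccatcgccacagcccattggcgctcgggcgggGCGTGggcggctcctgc
Pgk1: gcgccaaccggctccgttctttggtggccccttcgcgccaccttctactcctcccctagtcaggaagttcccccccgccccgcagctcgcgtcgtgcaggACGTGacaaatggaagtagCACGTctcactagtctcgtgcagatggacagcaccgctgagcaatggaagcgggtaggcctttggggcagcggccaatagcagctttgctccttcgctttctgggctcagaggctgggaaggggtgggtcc
Ldha: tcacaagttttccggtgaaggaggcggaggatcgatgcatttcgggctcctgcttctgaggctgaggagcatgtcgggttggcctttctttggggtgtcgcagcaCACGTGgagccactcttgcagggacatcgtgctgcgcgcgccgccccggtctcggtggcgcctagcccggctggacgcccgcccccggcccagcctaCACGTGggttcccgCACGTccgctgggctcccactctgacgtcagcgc
Ldhb: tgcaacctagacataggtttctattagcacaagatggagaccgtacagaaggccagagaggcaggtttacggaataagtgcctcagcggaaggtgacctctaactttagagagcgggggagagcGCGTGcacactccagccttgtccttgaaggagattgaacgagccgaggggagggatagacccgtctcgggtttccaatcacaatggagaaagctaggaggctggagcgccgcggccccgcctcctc

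The 10 genes had 16 RefSeq start windows, some of which overlap, and the 250 bases upstream of the start were searched in each. A HIF core was found in 14 of the 16 windows and in 38.6% of 32851 windows searched in the same way over all genes. The windows of the glycolysis genes with a core had 54.4 to 71.2% GC content, and those without had 49.6% (Hk1) and 50.4% (Aldoa). The median over all windows was 52.4%. The core contains CG, and whether the shares differ at equal GC content was not tested. The E-box was found in 1 of the 16 windows and in 6.02% of all windows. That window was the Ldha stretch above, with E-boxes that begin 145 and 48 bases before the start. In the Pgk1 stretch the cores begin 150 and 131 bases before the start. The windows without a core were 1 of the 2 of Hk1 and 1 of the 3 of Aldoa. A match is a string of letters, and no binding was measured in these libraries.

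The genes lie on chromosomes 4 (Slc2a1, Eno1), 6 (Hk2, Ldhb), 7 (Aldoa, Ldha), 10 (Hk1, Pfkl), 13 (Pfkp) and X (Pgk1), and all are protein coding in the GENCODE M21 annotation of GRCm38. Slc2a1 spans chr4:119108711-119137983, Ldhb chr6:142490249-142507957, Ldha chr7:46841475-46855627, Pfkp chr13:6579768-6648777, Hk1 chr10:62268855-62379908 and Hk2 chr6:82725025-82774454. Pfkl spans chr10:77986947-78010083, Pgk1 chrX:106187100-106203699, Eno1 chr4:150236721-150248879 and Aldoa chr7:126795234-126800751. The second Aldoa row, at chr7:126800790-126809108, had 2 to 69 counts per library and at most 0.187% of the level of the first row. It is counted among the 11 rows, while Aldoa without further words is the first row.

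Some of these genes have near copies elsewhere in the genome. The gene Eno1b, a near copy of Eno1, had 86.7 to 89.2% of the level of Eno1 in every library, and Pgk1-rs7 had 48.7 to 52.0% of the level of Pgk1. Ldhb-ps had 13.3 to 30.0% of the level of Ldhb and Ldha-ps2 had 2.96 to 3.54% of the level of Ldha. The levels of Eno1, Pgk1 and Ldhb are therefore uncertain, since how reads that match both a gene and its copy were counted is not given in the sources used here. Exons of Pfkp overlap those of Pitrm1 on the opposite strand over 5.582% of their length, and those of Hk1, Aldoa and Slc2a1 overlap an opposite-strand gene over 1.84%, 0.859% and 2.995%. The strand setting used in counting is not given in the sources used here.

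Total counts ranged from 19224103 to 39610939 per library, and the lowest raw count of any of the 10 main rows was 53, for Ldhb. Over genes with a mean of at least 100 normalised counts, MEF KO replicate 3 differed from the other 2 KO MEF libraries by a median of 0.26 on the log2 scale, and the other 35 libraries differed from their partners by 0.066 to 0.194. Zfp266 RNA was present in every group, with means of 1422 to 3200.02 normalised counts, and a guide-directed edit need not lower the RNA, so its level does not check the KO label. Sums of marker genes separated MEFs from the other stages, while the fibroblast sums of iPS and ESC libraries overlapped those of D7 libraries. The summed level of 13 fibroblast markers was 625701 to 696091 normalised counts in the MEF libraries and 16735 to 48185 in all others, and that of 12 pluripotency markers was 59.1 to 81.6 in MEFs and 110283 to 129622 in iPS and ESC libraries. In bulk RNA, fewer cells of a type and less RNA per cell cannot be told apart.

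Values are normalised counts, which are read counts divided by the size factor of the library, and they are compared between genes only per kilobase of merged exons. Per kilobase, WT MEFs had 8128 for Aldoa, 8106 for Pgk1, 7419 for Ldha and 6362 for Eno1, against 2812 for Ldhb, 1588 for Slc2a1, 755 for Pfkl, 542 for Hk2, 469 for Hk1 and 74.1 for Pfkp. In WT ESCs the highest were 16702 for Pgk1, 15722 for Aldoa, 14822 for Eno1 and 11540 for Ldha, and the lowest was 113 for Hk1. Together the 11 rows took 0.373 ± 0.0082% of the counts of WT MEF libraries (mean ± SD, n = 3), 0.487 ± 0.015% at D3, 0.499 ± 0.021% at D7, 0.84 ± 0.021% in iPS cells and 0.849 ± 0.0057% in ESCs.

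**Figure D1:**
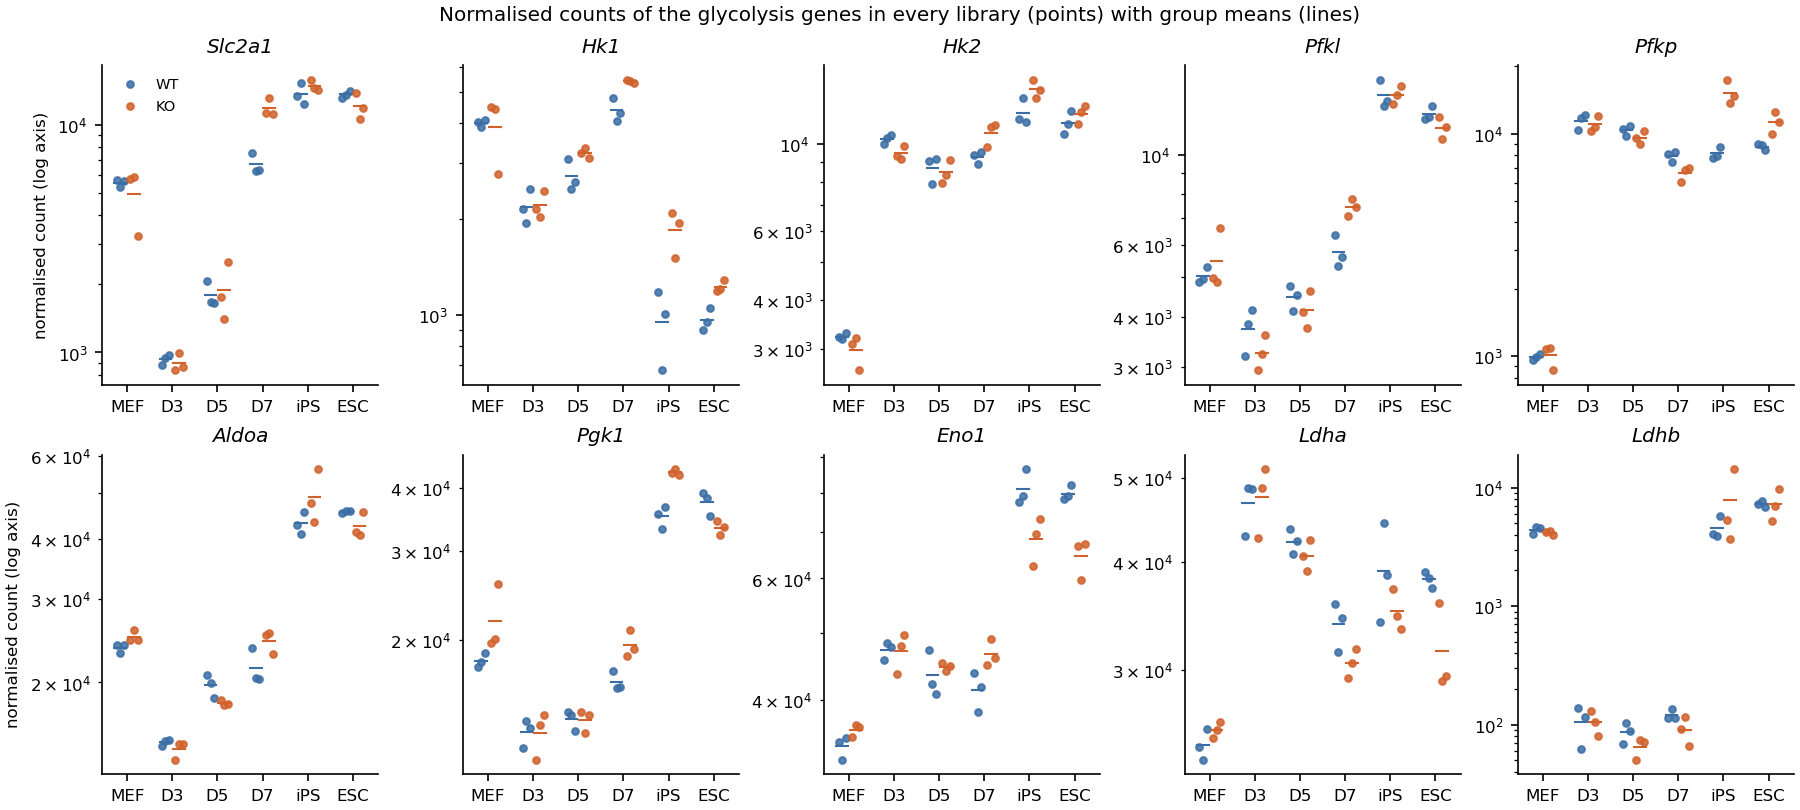
Each panel is 1 gene, with the stages on the x axis and normalised counts on a log y axis whose range differs between panels. Points are the 3 libraries of a group, lines are group means, WT in blue and KO in orange. Ldhb stood at 50.5 to 137 normalised counts at D3 to D7 and at 3713 or more in the other stages, while Slc2a1 was lowest at D3 and climbed at D7.

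The first comparison followed WT cells from MEFs to 3 days of reprogramming. The direction of change differed from gene to gene: Pfkp, Hk2, Ldha and Eno1 rose, and Ldhb, Slc2a1, Hk1, Aldoa, Pgk1 and Pfkl fell. Of the 11 rows, 4 were higher and 6 lower at D3 by the DESeq2 Wald test at a false discovery rate (FDR) below 0.05 over all genes. Of all genes tested, 33.8% were higher and 37.1% lower, so the share of the glycolysis rows that fell was 6 of 11 and the share that rose was 4 of 11. Their median log2 fold change (log2FC) was -0.43, against -0.01 over all genes tested. With the added rule of the study, an absolute log2FC above 1, 4 rows passed and 44.9% of all genes did. In the later WT comparisons 1 row passed it for D5 against D3 (6.77% of all genes), 1 for D7 against D5 (5.81%), 6 for iPS against D7 (45.0%), 0 for ESC against iPS (0.275%) and 8 for ESC against MEF (55.4%).

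The transporter gene fell the most among the upstream genes. Slc2a1 encodes GLUT1, which carries glucose into many cell types at a basal rate. It had 5694, 5339 and 5666 normalised counts in WT MEFs and 885, 948 and 972 at D3. The 2 groups did not overlap, and the level fell 5.95-fold (log2FC -2.57, SE 0.17, DESeq2 FDR 1.79e-48).

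The hexokinase genes moved in opposite directions. Hk1 encodes the widely expressed hexokinase 1 and Hk2 the inducible hexokinase 2, which is known from muscle, fat and many tumours. Hk2 had 3216, 3187 and 3299 normalised counts in MEFs and 9963, 10323 and 10515 at D3, a 3.17-fold rise (log2FC 1.67, SE 0.08, DESeq2 FDR 4.66e-101). Hk1 had 4037, 3877 and 4089 in MEFs and 2146, 1940 and 2478 at D3, a 1.83-fold fall (log2FC -0.87, SE 0.16, DESeq2 FDR 1.11e-07). In both genes the libraries of MEFs and D3 did not overlap.

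The phosphofructokinase genes also moved in opposite directions. Pfkp encodes the platelet-type and Pfkl the liver-type subunit of phosphofructokinase. Pfkp had 962, 997 and 1021 normalised counts in MEFs and 10426, 11756 and 12074 at D3, an 11.5-fold rise (log2FC 3.52, SE 0.10, DESeq2 FDR 1.88e-263). Pfkl had 4863, 4953 and 5298 in MEFs and 3201, 3839 and 4149 at D3 (log2FC -0.43, SE 0.11, DESeq2 FDR 0.000124). Of the 10 genes, Pfkp had the largest rise at this step, and no library of MEFs reached those of D3.

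The genes of the middle steps moved in both directions. Aldoa, which encodes the aldolase that splits fructose 1,6-bisphosphate, fell from 23660 ± 533 to 14955 ± 228 normalised counts (mean ± SD, n = 3 each, log2FC -0.66, SE 0.07, DESeq2 FDR 2.92e-19). Pgk1, the phosphoglycerate kinase that forms ATP, fell from 18191 ± 584 to 13146 ± 827 (log2FC -0.47, SE 0.08, DESeq2 FDR 4.84e-08). Eno1, the enolase that forms phosphoenolpyruvate, rose from 34223 ± 1327 to 47195 ± 1420 (log2FC 0.46, SE 0.07, DESeq2 FDR 1.47e-11). For each of the 3 genes the libraries of MEFs and D3 did not overlap.

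At the last step the genes for the lactate dehydrogenase subunits diverged. Ldha encodes the subunit that predominates in muscle and Ldhb the subunit that predominates in heart, and mixed tetramers form. Ldhb had 4096, 4623 and 4525 normalised counts in WT MEFs and 137, 62.0 and 116 at D3, a 42.0-fold fall (log2FC -5.39, SE 0.32, DESeq2 FDR 7.01e-61). Ldha had 24411, 23617 and 25641 in MEFs and 42888, 48749 and 48551 at D3, a 1.90-fold rise (log2FC 0.93, SE 0.09, DESeq2 FDR 9.21e-27). The fall of Ldhb was the largest change of any of the 11 rows in any WT comparison.

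From D3 to D5 fewer glycolysis genes changed. Slc2a1, Aldoa and the second Aldoa row were higher and Hk2 was lower, so 3 rows were higher and 1 lower, against 12.4% and 12.7% of all genes tested. Slc2a1 had 935 ± 45 normalised counts at D3 and 1791 ± 229 at D5 (log2FC 0.94, SE 0.17, DESeq2 FDR 1.7e-06). Aldoa rose with log2FC 0.40 (SE 0.07, DESeq2 FDR 7.8e-07), and Hk2 fell with log2FC -0.24 (SE 0.08, DESeq2 FDR 0.00914). Pfkl was not called in the main fit (log2FC 0.26, DESeq2 FDR 0.0604), and 6 of 12 alternatives called it. Among these were the replicate block (log2FC 0.26, DESeq2 FDR 0.0322) and, without the block, a fit of only the compared groups (log2FC 0.27, DESeq2 FDR 0.0106). The call of the second Aldoa row was kept in 6 of 12 alternatives. It was lost in a fit of only the D3 and D5 libraries, without the block (DESeq2 FDR 0.139) and with it (DESeq2 FDR 0.169). That fit called Hk1 without the block (log2FC 0.33, DESeq2 FDR 0.0036) and with it (log2FC 0.33, DESeq2 FDR 0.00138).

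From D5 to D7 Slc2a1 rose again, with 2055, 1662 and 1655 normalised counts at D5 and 7512, 6251 and 6307 at D7 (3.74-fold, log2FC 1.90, SE 0.17, DESeq2 FDR 2.91e-25). The D7 level was above that of WT MEFs, whose highest library had 5694. Hk1 also rose, from 3089, 2494 and 2613 to 4793, 4070 and 4290 (log2FC 0.68, SE 0.16, DESeq2 FDR 0.000243). Pfkl rose with log2FC 0.36 (SE 0.11, DESeq2 FDR 0.00551) and Pgk1 with log2FC 0.25 (SE 0.08, DESeq2 FDR 0.0176), while Pfkp fell with log2FC -0.39 (SE 0.10, DESeq2 FDR 0.000708) and Ldha with log2FC -0.32 (SE 0.09, DESeq2 FDR 0.00186). In this step 4 rows were higher and 2 lower, against 13.5% and 10.7% of all genes tested. Ldhb stayed low, with 68.0, 103 and 88.5 at D5 and 115, 136 and 113 at D7.

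Between sorted D7 cells and WT iPS clones, which differ in medium and in sorting, 8 rows were higher in iPS cells and 1 lower. Of all genes tested, 35.8% were higher and 37.7% lower, and the median log2FC was 0.97 over the 11 rows and 0.01 over all genes. Ldhb rose 38.0-fold, from 115, 136 and 113 to 4061, 3941 and 5807 normalised counts (log2FC 5.25, SE 0.32, DESeq2 FDR 6.6e-58). Pfkl rose 2.43-fold, Pgk1 2.12-fold, Slc2a1 2.04-fold, and Aldoa 2.01-fold, and Eno1 had log2FC 0.97 (SE 0.07, DESeq2 FDR 7.01e-47). Smaller rises were found for Hk2 (log2FC 0.37, SE 0.08, DESeq2 FDR 1.77e-06) and Ldha (log2FC 0.20, SE 0.09, DESeq2 FDR 0.0238), and the 2 groups overlapped for Ldha.

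Hk1 was the only row that fell at this step. It had 4793, 4070 and 4290 normalised counts at D7 and 1182, 673 and 1013 in iPS clones (4.59-fold, log2FC -2.20, SE 0.16, DESeq2 FDR 7.54e-42). Pfkp did not change beyond its error (log2FC 0.04, 95% interval -0.15 to 0.23, DESeq2 FDR 0.729). The D7 WT libraries enter both this comparison and that of D7 with D5.

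**Figure D2:**
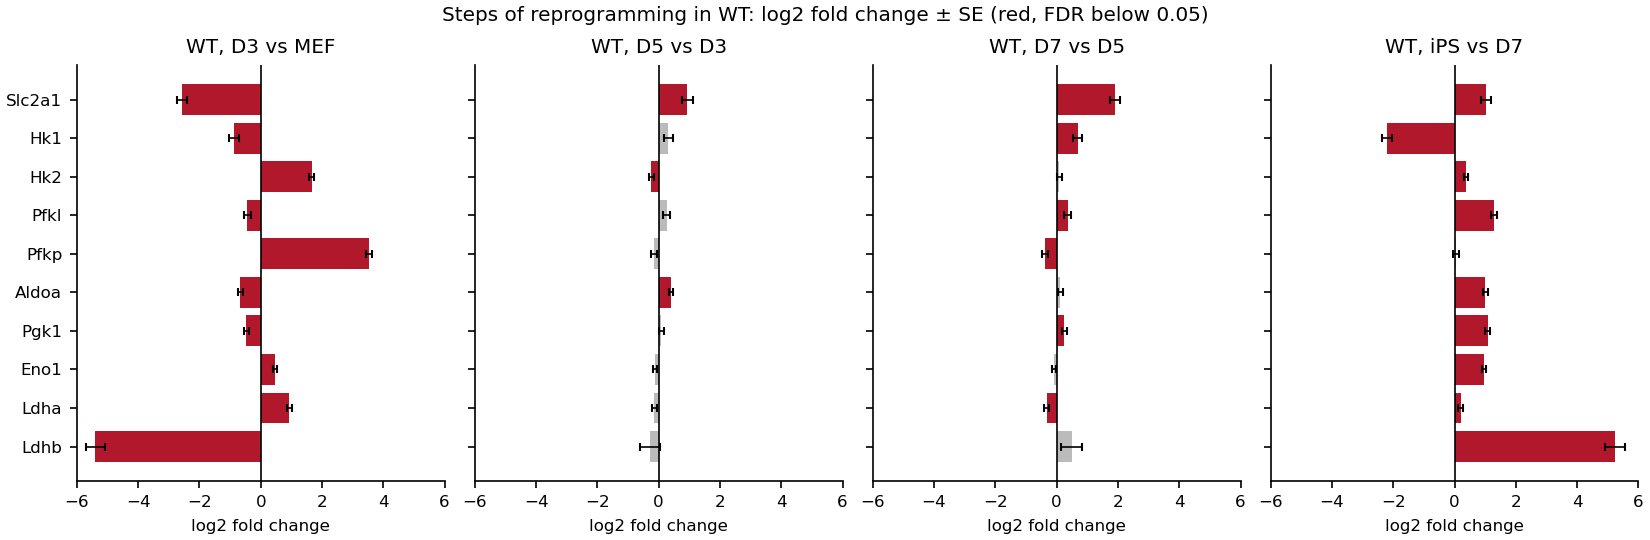
The log2 fold change (x axis, bars, with standard error) of the 10 glycolysis genes in WT cells at 4 steps, red where the DESeq2 FDR is below 0.05 and grey otherwise. Ldhb shows the longest bars in opposite directions at D3 against MEF (-5.39) and iPS against D7 (5.25), while Pfkp rose by 3.52 at the first step and barely moved at the last.

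Against WT MEFs, WT ESCs had 10 rows higher and 1 lower, with 40.0% of all genes tested higher and 39.4% lower. Pfkp was 8.79-fold higher (962, 997 and 1021 normalised counts in MEFs and 8974, 8839 and 8407 in ESCs), Hk2 3.50-fold, Pfkl 2.50-fold, Slc2a1 2.44-fold, Eno1 2.33-fold and Pgk1 2.06-fold. Hk1 was the lower gene, 4.13-fold (4037, 3877 and 4089 against 898, 952 and 1054, log2FC -2.05, SE 0.16, DESeq2 FDR 1.54e-36). Ldhb was 1.65-fold higher (log2FC 0.72, SE 0.31, DESeq2 FDR 0.0281). The groups did not overlap for any of the 11 rows, and the share of all genes without overlap is not given here.

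WT ESCs were then compared with WT iPS clones. None of the 11 rows was called by DESeq2 (1 had no FDR) or by edgeR, and 1 had an unadjusted p below 0.05 in each. Of all genes tested, 1.09% were higher and 2.11% lower in ESCs. The 95% intervals of the log2FC excluded a doubling for all of the 10 main genes but Ldhb, which had log2FC 0.66 (95% interval 0.05 to 1.28), with 7287, 7732 and 6844 normalised counts in ESCs and 4061, 3941 and 5807 in iPS clones.

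Because several steps are shared by isozymes, the share of 1 isozyme was computed per library from counts per kilobase of merged exons. Hk2 made up 53.6 ± 0.39% of Hk1 and Hk2 together in WT MEFs (mean ± SD, n = 3), 87.0 ± 1.3% at D3, 75.1 ± 1.3% at D7, 94.7 ± 1.7% in iPS clones and 94.4 ± 0.072% in ESCs. Pfkp made up 8.95 ± 0.18% of Pfkp and Pfkl in WT MEFs, 60.5 ± 1.3% at D3, 40.7 ± 1.6% at D7 and 22.5 ± 2.1% in iPS clones. The libraries of neighbouring WT stages did not overlap for Hk2 from MEF to iPS or for Pfkp from MEF to iPS.

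The lactate dehydrogenase share was highest during reprogramming. Ldha made up 72.5 ± 1.6% of Ldha and Ldhb in WT MEFs, 99.5 ± 0.20% at D3, 99.6 ± 0.10% at D5 and 99.2 ± 0.13% at D7, then 80.0 ± 4.1% in iPS clones and 71.3 ± 1.0% in ESCs. The highest WT iPS library was at 84.2% and the lowest D7 library at 99.1%.

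The length used decides the size of these shares. Merged exons of Pfkp add up to 13401 bases and those of Hk1 to 8532, while the longest APPRIS principal transcripts have 4145 and 3851. With principal transcripts, Hk2 made up 36.1 ± 0.36% in WT MEFs and 76.7 ± 2.0% at D3, Pfkp 15.1 ± 0.28% and 73.4 ± 1.1%, and Ldha 80.4 ± 1.2% and 99.7 ± 0.13%. The order of MEF, D3 and D7 was the same for all 3 pairs, while the larger share passed from Hk2 to Hk1 in MEFs and from Pfkl to Pfkp at D7, where Pfkp made up 55.4 ± 1.7%. In WT iPS clones the Pfkp share was 34.4 ± 2.7% with principal transcripts.

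**Figure D3:**
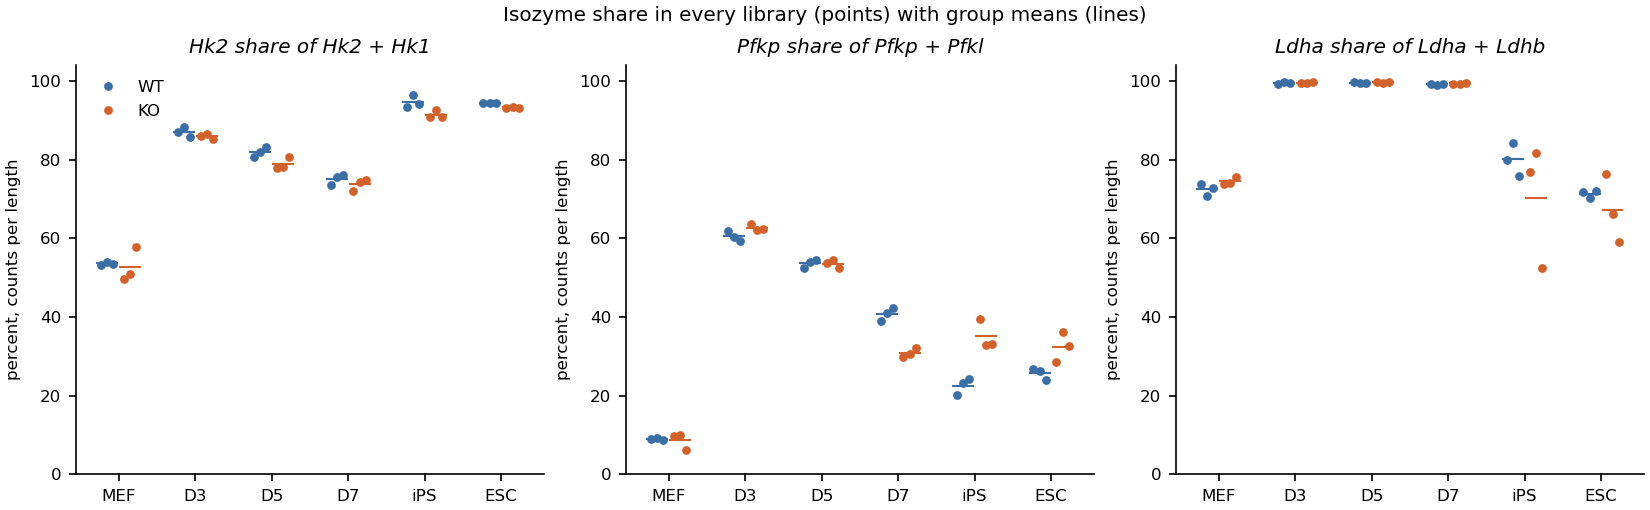
Share of an isozyme in counts per kilobase of merged exons (y axis, percent) at each stage (x axis). Points are libraries and lines are means of 3, WT in blue and KO in orange. Ldha was at 99.1% or more in all libraries of D3, D5 and D7, and Pfkp stood at 6.14 to 10.04% in MEFs against 59.2 to 63.5% at D3.

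The KO was compared with WT at each stage. In MEFs none of the 11 rows was called by DESeq2 or edgeR, with 1 unadjusted p below 0.05 in each, where 0.0285% of all genes tested were higher and 0.0143% lower. That row was Pgk1 (17684, 18059 and 18830 normalised counts in WT and 19669, 20054 and 25774 in KO, log2FC 0.26, SE 0.08, DESeq2 FDR 0.302). The other 9 main genes had log2FC between -0.16 and 0.12. In MEF KO replicate 3, the library that stood apart, Slc2a1 had 3249, Hk1 2780 and Pgk1 25774, against 5773, 4476 and 19669 in KO replicate 1. Without MEF KO replicate 1, Pgk1 was called (log2FC 0.33, DESeq2 FDR 0.0274).

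At D3 and at D5 none was called by DESeq2 or edgeR, with 0 unadjusted p below 0.05 in either, where 0.374% and 4.72% of all genes tested were higher and 0.119% and 2.43% lower. The largest log2FC among the 10 main genes was -0.19 (Pfkl, 95% interval -0.41 to 0.02) at D3 and -0.41 (Ldhb, 95% interval -1.08 to 0.26) at D5. Same-numbered WT and KO libraries of D3, D5 and D7 deviated together, and with the replicate number as a block in a fit of only the compared groups Pfkl was called at D3 (log2FC -0.19, DESeq2 FDR 0.0189) and Hk1 at D5 (log2FC 0.26, DESeq2 FDR 0.00578). Without the block, that smaller fit also called Hk1 at D5 (log2FC 0.25, DESeq2 FDR 0.0166), and not Pfkl at D3. Hk1 had 3233, 3343 and 3114 normalised counts in KO at D5 and 3089, 2494 and 2613 in WT.

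At D7 more of the glycolysis genes were higher than lower in KO. Slc2a1, Pfkl, Pgk1, Hk2, Aldoa and Eno1 were higher, and Pfkp was lower: 6 rows rose and 1 fell, against 13.3% and 16.1% of all genes tested. The median log2FC was 0.19 over the 11 rows and -0.04 over all genes tested. With the added rule of an absolute log2FC above 1, 0 of the 11 rows passed at any stage, against 0.019% of all genes tested in MEFs, 0.162% at D3, 1.19% at D5, 8.37% at D7, 4.51% in iPS clones and 1.21% in ESCs.

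Slc2a1 had the largest difference. It had 7512, 6251 and 6307 normalised counts in WT and 11239, 13132 and 11094 in KO, so every KO library was above every WT library (1.77-fold, log2FC 0.82, SE 0.17, DESeq2 FDR 2.22e-05). Pfkl had 6329, 5324 and 5618 in WT and 7084, 7787 and 7430 in KO (log2FC 0.37, SE 0.11, DESeq2 FDR 0.0037). Slc2a1 and Pfkl were called under all 12 alternatives, with DESeq2 or edgeR FDR up to 0.00133 and 0.0374.

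The other changes at D7 were below 1.2-fold. Pgk1 had log2FC 0.24 (SE 0.08, DESeq2 FDR 0.0153), Hk2 0.20 (SE 0.08, FDR 0.0279), Aldoa 0.19 (SE 0.07, FDR 0.0318) and Eno1 0.18 (SE 0.07, FDR 0.0329), with WT and KO overlapping for Aldoa alone. Pfkp fell with log2FC -0.25 (SE 0.10, DESeq2 FDR 0.0323), from 8103, 7448 and 8226 to 6065, 6861 and 7011 normalised counts. The Pfkp call was kept in 7 of 12 alternatives and lost with edgeR (edgeR FDR 0.0704) and with TMM size factors (DESeq2 FDR 0.0642). Of the 12 alternatives, 9 called Pgk1 and 8 each called Hk2, Aldoa and Eno1. The number of rows called was 3 without D7 WT replicate 2, without D7 WT replicate 3 or without D7 KO replicate 2.

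Hk1, Ldha and Ldhb were not called at D7. Hk1 had 4793, 4070 and 4290 normalised counts in WT and 5464, 5432 and 5340 in KO (log2FC 0.30, SE 0.16, DESeq2 FDR 0.143). It was called in a fit of only the 6 D7 libraries, without the block (log2FC 0.34, DESeq2 FDR 4.88e-06) and with it (log2FC 0.35, DESeq2 FDR 2.03e-07). Ldha had log2FC -0.15 (95% interval -0.32 to 0.02). Ldhb had 115, 136 and 113 in WT and 91.4, 115 and 66.3 in KO (log2FC -0.42, 95% interval -1.07 to 0.24).

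The effect of the KO at D7 differed from that at earlier days for some of these genes. Compared with D5, the difference of log2FC was 0.75 for Slc2a1 (SE 0.24, DESeq2 FDR 0.0411), 0.47 for Pfkl (SE 0.15, FDR 0.0373) and 0.31 for Aldoa (SE 0.10, FDR 0.0404), 3 rows more positive and 0 more negative against 2.83% and 3.02% of all genes tested. EdgeR called none of these, with 5 unadjusted p below 0.05, and of 18 alternatives 5 called Slc2a1, 9 Pfkl and 7 Aldoa. In a fit of only the compared groups Slc2a1 was lost both without the replicate block (DESeq2 FDR 0.0536) and with it (FDR 0.0559). Compared with D3, the difference was 0.88 for Slc2a1 (SE 0.25, DESeq2 FDR 0.00601), 0.56 for Pfkl (SE 0.15, FDR 0.00476) and 0.32 for Hk2 (SE 0.11, FDR 0.0269), against 5.82% more positive and 7.19% more negative among all genes. With the block and only the compared groups, 7 rows were called. For the differences between KO effects 0 rows passed the added rule, against 0.0448% of all genes for D5 against D3, 1.64% for D7 against D5, 4.12% for D7 against D3 and 0.59% for iPS against ESC. Between D5 and D3 none of the 10 rows with an FDR was called by DESeq2 or by edgeR, with 0 unadjusted p below 0.05 in each (0.064% and 0.0% of all genes called).

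Pluripotency markers differed between the genotypes at D5 and D7, and some fibroblast markers did at D7. At D5 the summed level of the 12 pluripotency markers was 8595 to 9702 normalised counts in WT and 12932 to 15229 in KO. At that stage 9 of 12 were higher in KO, and 1 was at 0 in all WT libraries. At D7 their sum was 14958 to 18164 in WT and 33407 to 40133 in KO. There 11 of 12 were higher in KO and none was at 0 in all libraries of either group. Of the 12 fibroblast markers with an FDR, 5 were lower and 1 higher at D7. The sum of all 13 was 33283 to 46293 in WT and 22116 to 40928 in KO, which overlapped. That of 6 endothelial markers was 1538 to 1941 in WT and 3753 to 3781 in KO, with 1 of 6 at 0 in WT and 2 higher. That of 6 neural markers was 29129 to 30894 in WT and 18918 to 20587 in KO, with 3 lower. Their part in the changes of the glycolysis genes was not tested.

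**Figure D4:**
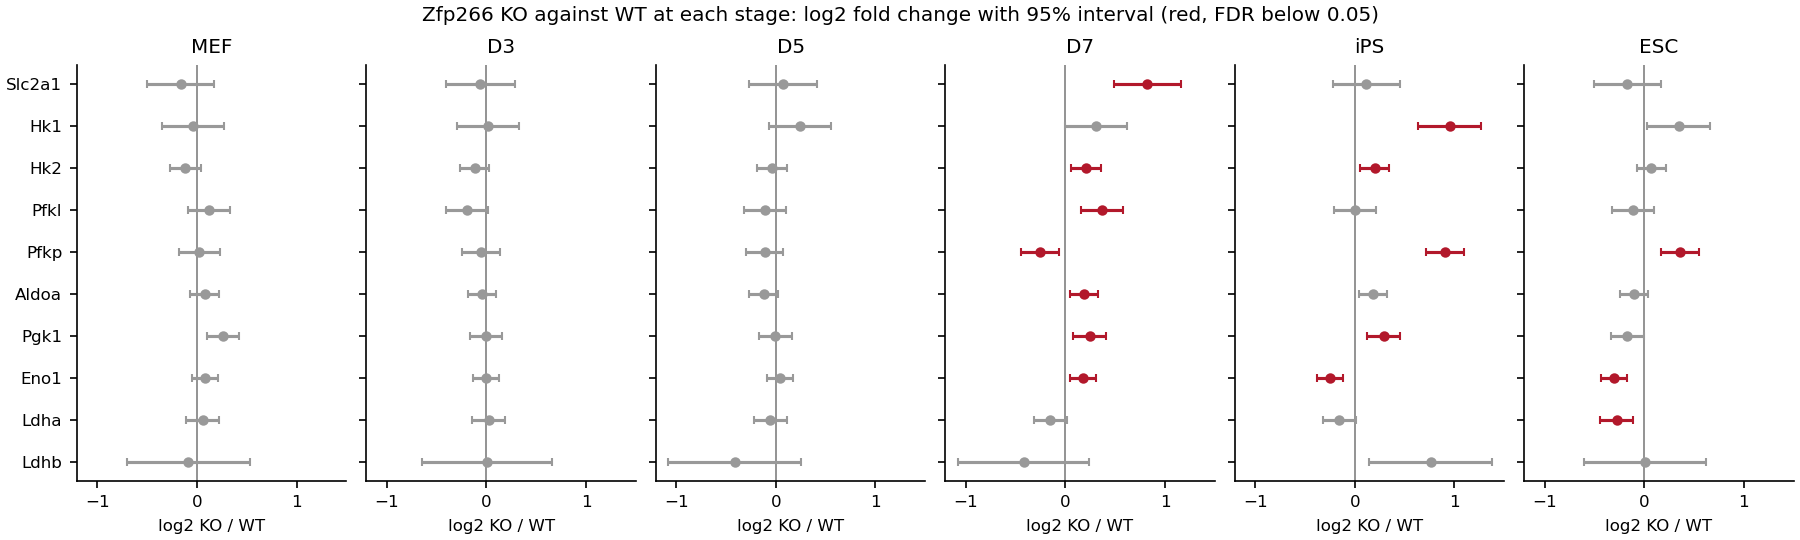
Log2 fold change of KO over WT (x axis, points, with 95% interval) for the 10 glycolysis genes at each of the 6 stages, red where the DESeq2 FDR is below 0.05. No point is red in MEF, D3 or D5. The largest values are Slc2a1 at D7 (0.82) and Hk1 and Pfkp in iPS clones (0.95 and 0.91).

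In iPS clones Hk1, Pfkp, Pgk1 and Hk2 were higher in KO and Eno1 was lower, 4 rows and 1 row against 9.72% and 6.63% of all genes tested. Hk1 had 1182, 673 and 1013 normalised counts in WT and 2086, 1512 and 1950 in KO (1.93-fold, log2FC 0.95, SE 0.16, DESeq2 FDR 4.01e-07). Pfkp had 7755, 7928 and 8736 in WT and 17432, 13674 and 14686 in KO (1.88-fold, log2FC 0.91, SE 0.10, DESeq2 FDR 1.17e-17). In both genes the 3 KO clones were above the 3 WT clones, and both calls held in all 11 alternatives. The sums of fibroblast and of endothelial markers were higher in KO here. The fibroblast sum was 21532 to 35318 normalised counts in WT (2 of 13 markers at 0) and 42807 to 48185 in KO. Of the 12 fibroblast markers with an FDR, 2 were higher and 0 lower. The endothelial sum was 1127 to 2013 in WT and 2509 to 3411 in KO. Of 6 endothelial markers 2 were higher and 2 lower, with a median log2FC of -0.24. Their part in these results was not tested.

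The remaining calls in iPS clones were smaller. Pgk1 had 35473, 33148 and 36624 normalised counts in WT and 42795, 43528 and 42285 in KO (log2FC 0.29, SE 0.08, DESeq2 FDR 0.00607). Eno1 had 77551, 79152 and 86554 in WT and 62502, 69648 and 73140 in KO (log2FC -0.24, SE 0.07, DESeq2 FDR 0.00359). Hk2 was at the edge of the threshold (log2FC 0.20, SE 0.08, DESeq2 FDR 0.0499), and its call was kept in 3 of 11 alternatives. In a fit of only the iPS libraries 2 rows were called, and 3 without iPS KO replicate 1.

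Ldhb varied more between the KO iPS clones than the other main genes did. It had 4061, 3941 and 5807 normalised counts in the WT clones and 5340, 3713 and 14354 in the KO clones, so KO replicate 3 lay far above the other 5 and the groups overlapped. Its log2FC was 0.76 (95% interval 0.14 to 1.38, DESeq2 FDR 0.0789), and it was called without iPS KO replicate 2 (log2FC 1.10, DESeq2 FDR 0.00349) and without iPS WT replicate 3 (log2FC 0.96, DESeq2 FDR 0.0399). The share of Ldha ranged from 52.5 to 81.6% in KO clones and from 75.9 to 84.2% in WT clones.

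In ESCs Pfkp was higher in KO, and Eno1 and Ldha were lower, 1 row and 2 rows against 5.82% and 4.29% of all genes tested. Pfkp had 8974, 8839 and 8407 normalised counts in WT and 9944, 12430 and 11303 in KO (log2FC 0.36, SE 0.10, DESeq2 FDR 0.00476). Eno1 had 78222, 78971 and 81981 in WT and 66815, 59790 and 67411 in KO (log2FC -0.30, SE 0.07, DESeq2 FDR 0.000384), a call kept in all 11 alternatives. Ldha had 38978, 38323 and 37290 in WT and 35856, 29156 and 29534 in KO (log2FC -0.28, SE 0.09, DESeq2 FDR 0.0182). Hk1 was not called (log2FC 0.34, SE 0.16, DESeq2 FDR 0.167), with 898, 952 and 1054 in WT and 1193, 1206 and 1288 in KO. A fit of only the ESC libraries called Hk1 (log2FC 0.33, DESeq2 FDR 0.00389) and Pgk1 (log2FC -0.18, DESeq2 FDR 0.0430). Only 1 row was called without ESC KO replicate 2. The fibroblast sum was 26371 to 33204 in WT (3 of 13 markers at 0) and 37205 to 38360 in KO (1 marker higher), the endothelial sum 1793 to 2050 and 2518 to 3022 (1 higher and 1 lower), and the pluripotency sum 119840 to 122844 and 127713 to 129622 (0 called). The neural sums overlapped, with 2 markers lower. Their part in these results was not tested.

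The KO effect in iPS clones was compared with that in ESCs. Pfkp and Pgk1 had a more positive effect in iPS clones, by 0.55 (SE 0.14, DESeq2 FDR 0.0106) and 0.46 (SE 0.12, DESeq2 FDR 0.0139), 2 rows more positive and 0 more negative against 0.924% and 0.547% of all genes tested. EdgeR called neither, with 4 unadjusted p below 0.05. Pgk1 was higher in KO iPS clones, while in ESCs its log2FC was -0.17 (SE 0.08, DESeq2 FDR 0.193). Eno1 was lower in KO in both stages, and the difference of its effects was 0.06 (95% interval -0.13 to 0.24, DESeq2 FDR 0.882).

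The share of isozymes in KO cells was read in the same way. Pfkp made up 30.8 ± 1.1% of Pfkp and Pfkl at D7 in KO and 40.7 ± 1.6% in WT, and the libraries did not overlap. In iPS clones it made up 35.1 ± 3.8% in KO and 22.5 ± 2.1% in WT, again without overlap. In ESCs it made up 32.4 ± 3.8% in KO and 25.7 ± 1.4% in WT, also without overlap. Hk2 made up 91.5 ± 0.92% in KO iPS clones and 94.7 ± 1.7% in WT clones, and at D7 73.7 ± 1.6% and 75.1 ± 1.3%, where the libraries overlapped. In ESCs its share was 93.3 ± 0.18% in KO and 94.4 ± 0.072% in WT, without overlap. These shares were not tested.

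Other genes of glucose metabolism were taken from lists written with earlier results of these data known. Of 29 further glycolysis genes, 25 were in the table. At D7 7 of 25 were higher and 7 lower in KO (13.3% and 16.1% of all genes tested), with a median log2FC of 0.07, and the 3 with the lowest FDR were Slc2a3, Pfkm and Pfkfb3. Slc2a3 encodes GLUT3, a transporter with high affinity for glucose, and it stood at 5571 ± 299 normalised counts in WT against 13697 ± 2305 in KO (1.30 on the log2 scale, SE 0.11, DESeq2 FDR 4.08e-28). Pfkm, the muscle-type phosphofructokinase, had log2FC 1.05 (SE 0.13, DESeq2 FDR 1.34e-14), and Pfkfb3, which makes the activator fructose 2,6-bisphosphate, had -0.62 (SE 0.15, DESeq2 FDR 0.000262).

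At D5 Slc2a3 was already higher in KO (log2FC 0.47, SE 0.11, DESeq2 FDR 0.00162), while Pfkm was lower (log2FC -0.67, SE 0.13, DESeq2 FDR 2.79e-05), and 1 of 23 tested was higher and 1 lower (4.72% and 2.43% of all genes). In iPS clones 3 of 25 were higher and 3 lower (9.72% and 6.63% of all genes), among them Pgam1 with log2FC -0.22 (DESeq2 FDR 0.00244). In ESCs 0 of 23 were higher and 4 lower (5.82% and 4.29% of all genes), with Pgam1 at -0.28 (DESeq2 FDR 0.000107), Tpi1 at -0.32 (DESeq2 FDR 0.0037) and Eno2 at -0.68 (DESeq2 FDR 0.0131). Between WT MEFs and D3 10 of 25 rose and 10 fell (33.8% and 37.1% of all genes), with the lowest FDR for Tigar (log2FC 3.55), Tpi1 (log2FC -2.06) and Eno2 (log2FC -5.40). Between D7 and iPS 13 of 25 rose and 6 fell (35.8% and 37.7% of all genes), among them Slc2a3 (log2FC 2.46), Pkm (log2FC 1.35) and Pgam1 (log2FC 0.97).

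Genes that carry pyruvate into mitochondrial metabolism numbered 15 of 15 in the table. At D7 3 of 15 were higher and 5 lower in KO, against 13.3% and 16.1% of all genes tested. Pdk1, a kinase that inhibits pyruvate dehydrogenase, rose (log2FC 0.87, SE 0.13, DESeq2 FDR 2.88e-09), while the dehydrogenase subunit gene Dlat fell (log2FC -0.28, SE 0.05, DESeq2 FDR 8.84e-08) and the citrate synthase gene Cs fell (log2FC -0.40, SE 0.06, DESeq2 FDR 6.14e-10). Pcx, pyruvate carboxylase, fell in WT cells from 2678 ± 135 normalised counts in MEFs to 105 ± 21 at D3 (log2FC -4.67, SE 0.14, DESeq2 FDR 2.3e-238) and rose from D7 to iPS (log2FC 3.68, SE 0.14, DESeq2 FDR 1.82e-146).

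The serine branch leaves glycolysis at 3-phosphoglycerate, and its 7 genes were all measured. In WT cells 7 of 7 rose from MEF to D3 (33.8% of all genes did), with a median log2FC of 1.51. In KO iPS clones 4 of 7 were higher and 0 lower (9.72% and 6.63% of all genes), and in KO ESCs 5 were higher and 0 lower (5.82% and 4.29%). Mthfd2 had log2FC 0.67 (SE 0.14, DESeq2 FDR 0.000136) and 1.28 (SE 0.14, DESeq2 FDR 8.9e-16) in these stages, and Psat1 0.62 (DESeq2 FDR 0.000425) and 1.13 (DESeq2 FDR 2.52e-12). At D7 Phgdh, the first enzyme of the branch, was lower in KO (log2FC -0.53, SE 0.14, DESeq2 FDR 0.0014), with 1 of 7 higher and 2 lower (13.3% and 16.1% of all genes).

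Of 9 genes of the pentose phosphate pathway, 1 was higher in KO at D7 (Prps1, log2FC 0.30, DESeq2 FDR 0.00582) and 2 were lower in iPS clones (G6pdx, log2FC -0.36, DESeq2 FDR 0.00309, and Pgd, log2FC -0.26, DESeq2 FDR 0.0303). Of all genes tested 13.3% were higher at D7 and 6.63% lower in iPS clones. Of the 5 gluconeogenesis genes 3 were measured, and Pck2, a mitochondrial enzyme that makes phosphoenolpyruvate, was higher in KO in iPS clones (log2FC 1.27, SE 0.23, DESeq2 FDR 2.14e-06) and in ESCs (log2FC 1.69, SE 0.23, DESeq2 FDR 1.44e-10). None of the 3 was called at D7.

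Among 11 regulators of glycolysis or respiration, 6 were higher and 2 lower in KO at D7 (13.3% and 16.1% of all genes), with a median log2FC of 0.52. Tfcp2l1, which also stands in the pluripotency list, had log2FC 1.37 (SE 0.16, DESeq2 FDR 7.42e-16), Zfp281 0.59 (SE 0.09, DESeq2 FDR 1.87e-10) and Arnt, the HIF partner, 0.53 (SE 0.08, DESeq2 FDR 2.68e-09). Hif1a, the oxygen-regulated subunit of HIF, fell in WT cells from 9719 ± 185 normalised counts in MEFs to 1948 ± 204 at D3 (log2FC -2.32, SE 0.08, DESeq2 FDR 4.78e-165). Of 18 HIF targets outside glycolysis, 3 rose and 13 fell from MEF to D3 (33.8% and 37.1% of all genes), with Bnip3 at -5.67, Vegfa at -3.77 and Ndrg1 at 2.82 on the log2 scale. In KO at D7 3 of 18 were higher and 2 lower (13.3% and 16.1% of all genes), in iPS clones 8 were higher and 0 lower (9.72% and 6.63%), and in ESCs 1 of 17 was higher and 2 lower (5.82% and 4.29%). Ddit4 (log2FC 1.18, SE 0.16, DESeq2 FDR 1.77e-10) and Vegfa (log2FC 1.18, SE 0.21, DESeq2 FDR 2.54e-06) were among those higher in KO iPS clones.

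The patterns of the 10 genes over the 12 group means were compared with each other and with all 13285 genes that had a mean of at least 100 normalised counts, as Pearson's r of log2(normalised count + 1). WT and KO groups share their stages, so r is a description over 12 points. Aldoa and Pgk1 were the most alike pair (r = 0.986), followed by Aldoa and Pfkl (r = 0.981). Hk2 and Pfkp had r = 0.951. Hk1 ran against Eno1 (r = -0.887), and Ldha ran against Slc2a1 (r = -0.556).

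The gene most like a member was its own copy for Eno1 (Eno1b, r = 1), Pgk1 (Pgk1-rs7, r = 1), Ldhb (Ldhb-ps, r = 1) and Ldha (Ldha-ps2, r = 0.996). For the others it was Atl2 for Hk2 (r = 0.996), Zkscan5 for Aldoa (r = 0.994), Atg4d for Pfkp (r = 0.993), Gm21781 for Pfkl (r = 0.990), Spata13 for Slc2a1 (r = 0.987) and Fryl for Hk1 (r = 0.970). The Hk1 value was the lowest of these.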

How the data were processed

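Stranded mRNA libraries were sequenced as single reads. The authors trimmed reads with Cutadapt after FastQC, joined runs, aligned them to GRCm38.p6 with STAR and counted reads per gene with Rsubread. The strand setting, the annotation release and the handling of reads with several matches are not given in the sources used here. The counts were used as deposited. The deposited normalised signal equals counts divided by a DESeq2 size factor and was recomputed from the counts to within a relative difference of at most 9.26e-15. Gene symbols came from the deposited comparison tables, whose fold changes and p-values were not used, and the authors' log matrix corrected for library preparation date was not used, since the labels give no dates.

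DESeq2 1.42.0 in R 4.3.3 was fitted to all 36 libraries with 1 factor of 12 groups, and a gene was called at an FDR below 0.05 over all genes with an FDR. EdgeR 4.0.16, TMM factors, a filter of 10 counts in 3 libraries, a fit of only the compared groups, a replicate block and leaving out each library were alternatives, and their code was checked on simulated data. Libraries of a group differed by 3.50 to 134 times the counting variance (36 pairs), so none was a copy. Where replicates are samples of 1 line, p-values measure the spread between samples.

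Same-numbered KO and WT libraries deviated together at D3 (correlations 0.117 to 0.513), D5 (0.109 to 0.306) and D7 (0.188 to 0.443), and not at the other stages, so the numbers were taken to pair libraries at D3, D5 and D7. Of 21442 rows, 21390 were found in GENCODE M21, which gave lengths and positions. Promoters are from RefSeq, and chromosome 18 was left out. The genes and lists were chosen with earlier results of these data known. The rule for named genes took all 10 genes in every comparison, those without a call by count or range, and of each further list at most the 3 called genes with the lowest FDR, plus the gene most like each by Pearson's r.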

Additional observations from a re-analysis of the deposited data

Results flagged for a closer look

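The effect of the KO differed between stages, by a test of the difference itself, in 8 cases. At D7 it was more positive than at D5 for Slc2a1 (0.75 on the log2 scale, DESeq2 FDR 0.0411), Aldoa (0.31, FDR 0.0404) and Pfkl (0.47, FDR 0.0373). Both effects rest on 3 libraries per group, and edgeR called none of the 3. At D7 it was more positive than at D3 for Slc2a1 (0.88, DESeq2 FDR 0.00601), Hk2 (0.32, FDR 0.0269) and Pfkl (0.56, FDR 0.00476), and Slc2a1 and Pfkl were called in all 18 alternatives. The comparisons of D7 with D5 and of D7 with D3 share the D7 libraries. In iPS clones it was more positive than in ESCs for Pgk1 (0.46, DESeq2 FDR 0.0139) and Pfkp (0.55, FDR 0.0106), and edgeR called neither.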

How the results depend on the processing

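Of 2242 values of single rows under the alternatives, 2102 kept their side of the threshold, 103 lost their call and 37 gained one. None reversed while called. Among the 2102 values, the sign changed in 76 cases where neither fit made a call. With only the compared groups, KO against WT called 1 row at D5 (0 with all groups), 2 in iPS clones (5) and 5 in ESCs (3), ESC against iPS called 1 (0), the difference of KO effects called 6 for D7 against D3 (3) and 1 for iPS against ESC (2). EdgeR called 0 for the differences D7 against D5 and iPS against ESC, and the filter on low counts left 1 for D7 against D5.

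With the replicate block over 36 libraries the number of calls moved only for WT D5 against D3, from 4 to 5. With the replicate block and only the compared groups, chosen after seeing the data, KO against WT called 1 row at D3 and 1 at D5, and the difference D7 against D3 called 7.

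Leaving out 1 library gave 0 to 1 calls for the KO in MEFs, 3 to 5 at D7, 3 to 7 in iPS clones and 1 to 3 in ESCs, and 0 to 3 for the difference D7 against D5, 2 to 4 for D7 against D3 and 1 to 3 for iPS against ESC. With mean transcript length 34 of 36 isozyme shares moved by more than 1 SD, as did 34 with principal transcripts (chosen after seeing the data). Leaving out 1 of 3 libraries cannot move their mean by 1 SD, so that check decides nothing for the shares. Ldhb had the lowest counts of the 10 genes, 53 or more in every library. The cause of the changed calls was not tested.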
